A study of Mus musculus with 15 samples.

Results

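The genes described here encode integrins, the receptors by which cells hold on to the extracellular matrix, and the adaptor proteins and kinases of the focal adhesions that form at their inner ends. A list of 40 such genes, 18 integrin genes and 22 genes of adaptors and kinases, was drawn up by protein family, and a gene entered where a probe set of the arrays carried its symbol and no other. Of the 40 genes, 33 were measured in this way, 16 integrins and 17 adaptors, out of 12848 gene symbols on the arrays. Itgbl1, which encodes a secreted protein akin to a beta chain and no receptor chain, is counted among the integrins throughout. Where a gene had more than 1 such probe set, the brightest over all arrays was used. Itga10, Itgb6, Fermt1, Ptk2 and Nedd9 had no probe set of their own, and the probe sets of Ilk and Lims2 carried further symbols, so these 7 genes were not analysed here.

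RNA of the whole aorta was hybridized to Affymetrix arrays, 1 array per mouse, from 8 mice given angiotensin II (AngII) at 1 µg/kg/min and 7 mice given vehicle, which was saline. Both groups were C57BL6 mice of 2 months of age, with no genetic change named, and received their infusion from implanted miniosmotic pumps for 3 weeks. The infusion raises blood pressure and acts on many organs, so that pressure and the peptide itself cannot be told apart as a model. The aorta was taken down to the iliac bifurcation and cleaned of fat. All values are log2 signals, in which a difference of 1 is a doubling.

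An integrin is a pair of an alpha and a beta chain, and the pairing sets which matrix protein is bound. Talin and kindlin switch the receptor on from inside, and further layers of adaptor proteins (paxillin, parvin, tensin, the zyxin family) tie it to actin, while kinases of the FAK family and Src relay the signal. In the aorta, smooth muscle cells are held to collagen, elastin and laminin in this way, and these junctions bear the load of the pressure wave.

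The array medians lay between 7.16 and 7.28, and pairs of arrays correlated at r of 0.925 to 0.985. AngII 8, AngII 5 and vehicle 1 had the lowest correlations with the other arrays. Contractile smooth muscle genes such as Acta2 and Myh11 were all measured, 15 of 15, and their mean lay between 10.6 and 11.4 in every aorta. Of the macrophage markers, 7 of 11 were called higher in AngII aortae by limma (adjusted p under 0.05), beside 2.42% of all probe sets. The mean of the 11 was 8.38 ± 0.290 (SD, n = 8) with AngII and 7.80 ± 0.254 (SD, n = 7) with vehicle. The mean of 11 adipocyte markers was 9.70 ± 0.714 in AngII and 9.18 ± 0.968 in vehicle aortae (SD, n = 8 and 7), and limma called none of them (1 at an unadjusted p under 0.05, Plin4, with a log2 fold change of -0.22). The log2 fold changes of 10 of the 11 were positive, and the median of the list was 0.60. Of 11 endothelial markers limma called none as well (2 higher at an unadjusted p under 0.05, which 21.9% of all probe sets reached in either direction). Of the 7 lymphocyte markers none had a probe set of its own. The names of the samples follow 2 styles, here called series A, with 3 AngII and 2 vehicle arrays, and series B, with 5 of each. Whether they mark a batch is not stated, so values within each are given.

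Limma called 5 of the 33 genes, or 15.2%, at an adjusted p under 0.05, beside 5.33% of all 15095 probe sets. The genes were chosen with earlier results of these data known, so the 2 shares are a description and no independent test. Itga11 and Ptk2b were higher in AngII aortae, 2 of 33 beside 2.42% of all probe sets, and Itga8, Itgb8 and Zyx were lower, 3 of 33 beside 2.91%. These are 3 of 16 integrins and 2 of 17 adaptors. At an unadjusted p under 0.05 there were 19 of 33 genes, 7 higher and 12 lower, where 21.9% of all probe sets reached this level. The median log2 fold change was -0.05 over the integrins and 0.01 over the adaptors, beside -0.01 over all probe sets. For none of the 33 genes did every AngII array lie on 1 side of every vehicle array, which 1.09% of all probe sets did. In whole tissue, fewer cells of a type and less RNA per cell cannot be told apart.

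**Figure D1:**
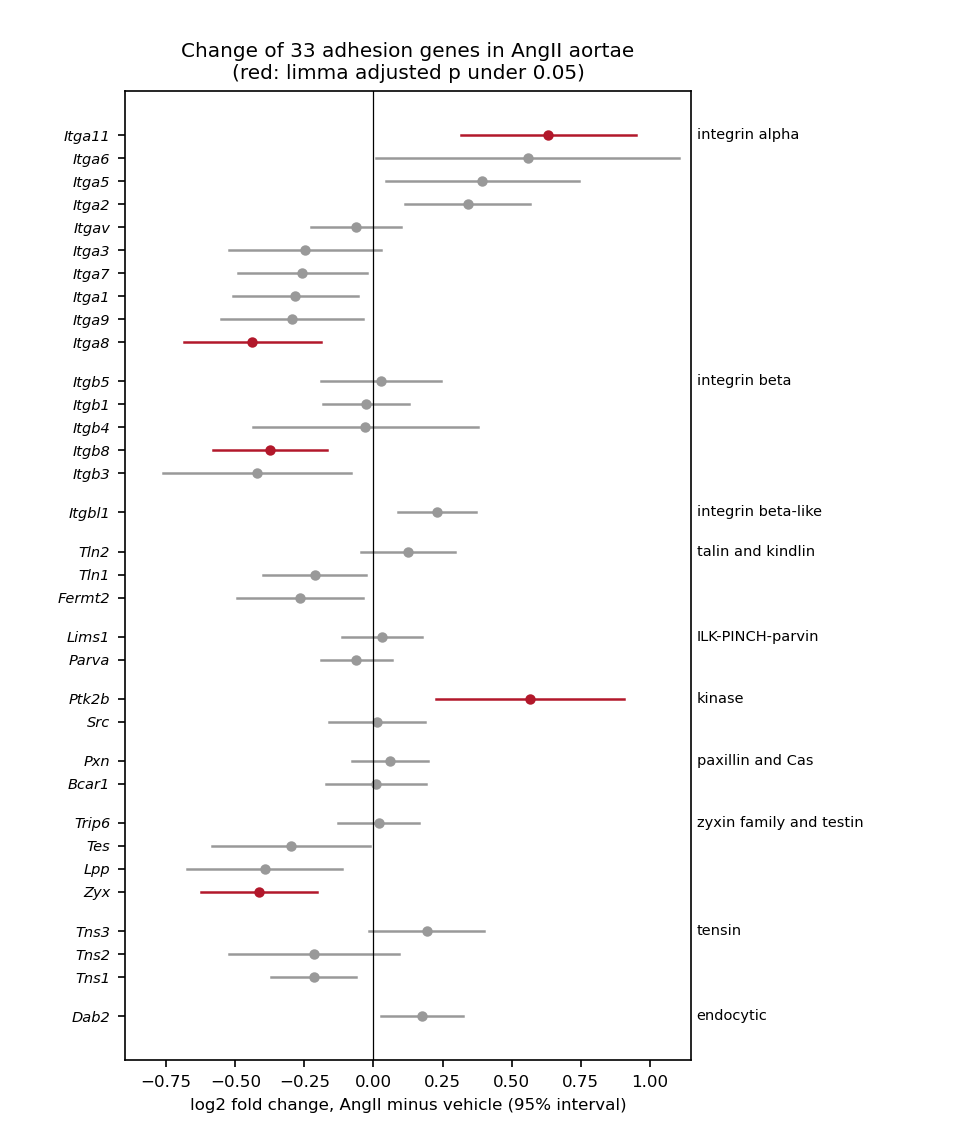
Log2 fold change, AngII minus vehicle, of the 33 measured genes (points) with the 95% interval from limma (lines), grouped by role; 8 AngII and 7 vehicle arrays. The 5 genes in red have an adjusted p under 0.05: Itga11 (0.63) and Ptk2b (0.57) lie right of 0 and Itgb8 (-0.37), Zyx (-0.41) and Itga8 (-0.44) left of it.

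Among the alpha chains, Itga11, a receptor for fibrillar collagen known mainly from fibroblasts, changed most. Its signal ran from 7.03 over a median of 7.31 to 7.67 in AngII aortae, against 6.31, 6.63 and 7.32 as lowest, median and highest in vehicle aortae. The 8 AngII arrays all lay above the vehicle median and 4 of them above every vehicle array, the highest of which was vehicle 1. The means were 7.34 ± 0.266 (SD, n = 8) with AngII and 6.71 ± 0.366 (SD, n = 7) with vehicle, a log2 fold change of 0.63 (standard error 0.150) or a signal 55.0% higher (adjusted p = 0.0247 from limma; exact permutation test, two-sided p = 0.00326). The call ended without vehicle 4, 5 or 7 (limma adjusted p = 0.0512, 0.0594 and 0.0533). The difference was 0.80 in series B, where limma called it, and 0.20 in series A. With the macrophage mean in the fit it was 0.21 (limma adjusted p = 0.861), a fit in which limma called 1 probe set of all. The macrophage mean itself ran from 8.07 to 8.93 in AngII and from 7.40 to 8.15 in vehicle aortae. This fit can therefore hardly tell the macrophage mean apart from the treatment. Of 8 measured fibroblast markers limma called 2, both higher, Lum (log2 fold change 1.02) and Dpt (0.54), beside 2.42% of all probe sets called higher. The mean of the 8 was 10.50 ± 0.217 in AngII and 10.29 ± 0.125 in vehicle aortae (SD, n = 8 and 7). Their median log2 fold change was only 0.07, with 6 of the 8 positive, so the list did not move together. The part of these markers in the difference of Itga11 was not tested.

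Itga8, a receptor for nephronectin and other RGD ligands that is abundant in vascular smooth muscle, was the lowered alpha chain. Lowest, median and highest signals were 11.48, 12.20 and 12.42 in AngII aortae, against 12.33, 12.60 and 12.69 in vehicle aortae. Here 6 of 8 AngII arrays lay below every vehicle array, and only AngII 6 and AngII 2 reached the range of vehicle, both just above vehicle 1. AngII 5 stood lowest, and without it the difference was -0.35 and was still called (limma adjusted p = 0.0379). The average signal fell by 26.2% (log2 fold change -0.44; exact permutation test, two-sided p = 0.00171), and the call held in 5 of 15 fits that each left out 1 array, with limma adjusted p from 0.0224 to 0.0917. The fits in which it ended left out vehicle 2 to 7 or AngII 1, 3, 7 or 8. The difference was -0.57 in series B (limma adjusted p = 0.0607) and -0.19 in series A.

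Other collagen and laminin receptors did not pass the adjusted threshold. For Itga2, the alpha chain of another collagen receptor, the log2 fold change was 0.34 (limma adjusted p = 0.0735), while Itga1, the collagen receptor chain typical of smooth muscle, had one of -0.28 (limma adjusted p = 0.133). For Itga1, 6 of 8 AngII arrays were below every vehicle array, with AngII 5 at 9.72 and AngII 8 at 9.77 the lowest and vehicle 6 at 10.31 the lowest with vehicle. Itga7, a laminin receptor of muscle, had a log2 fold change of -0.26 (limma adjusted p = 0.183), and Itga3, likewise a laminin receptor, of -0.25 (limma adjusted p = 0.279). Itga6, the laminin receptor chain of endothelial and epithelial cells, had one of 0.56 with a wide 95% interval of 0.01 to 1.11 (limma adjusted p = 0.221). The spread of Itga6 was large in both groups, from 6.51 to 7.99 with AngII and from 6.01 to 7.52 with vehicle, and the groups overlapped over most of that range.

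The fibronectin receptor chain Itga5 had a log2 fold change of 0.39 (limma adjusted p = 0.174), with 4 of 8 AngII arrays above all vehicle arrays. Vehicle 1 stood alone at the bottom of the vehicle group for Itga5, at 9.19 beside 9.83 for the next array, and without it the limma log2 fold change was 0.27. Itga9, which binds tenascin-C and VCAM1, had a log2 fold change of -0.29 (limma adjusted p = 0.168), and all 8 AngII arrays were below its vehicle median of 10.88. Itgav, the partner of several beta chains, had one of -0.06, with a 95% interval of -0.23 to 0.10.

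**Figure D2:**
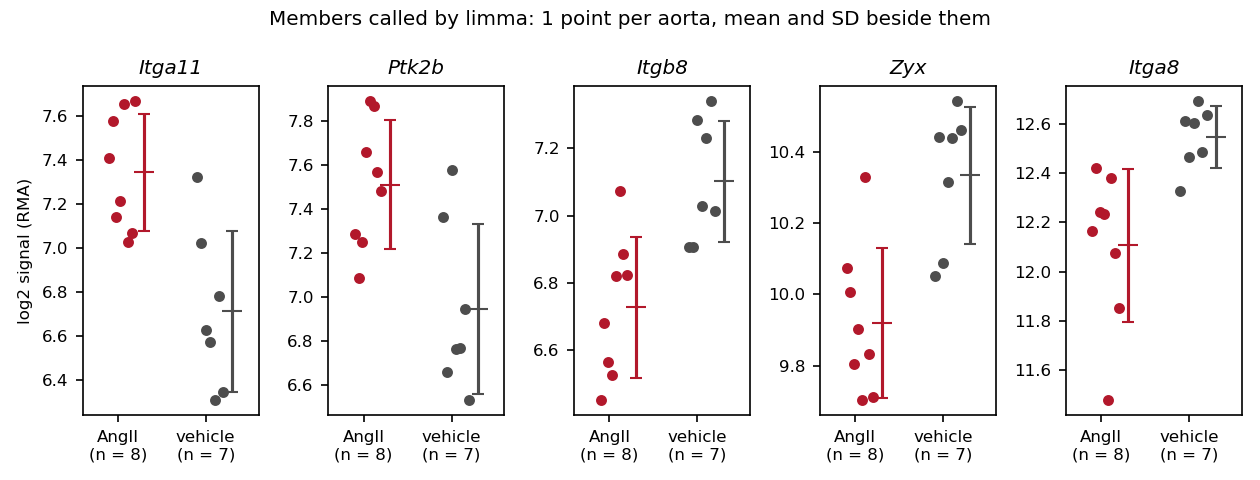
Log2 signal of the 5 genes called by limma in each aorta (points), with the group mean and SD beside them; AngII (n = 8) left of vehicle (n = 7), and each panel has its own scale. AngII and vehicle arrays overlap in every panel, with 7 of 8 AngII arrays of Itgb8 and 6 of 8 of Itga8 and Zyx below all vehicle arrays.

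Of the beta chains, Itgb8, which pairs with the alpha-v chain and activates latent TGF-beta, was lower in AngII aortae. Its lowest, median and highest signals were 6.45, 6.75 and 7.07 with AngII, against 6.91, 7.03 and 7.34 with vehicle. Only AngII 6 reached the range of vehicle, and the other 7 AngII arrays were below it. The log2 fold change was -0.37 (standard error 0.0976), so that the signal fell by 22.8% (adjusted p = 0.0361 from limma; exact permutation test, two-sided p = 0.00373). The difference was alike in size in series B (-0.35) and series A (-0.34), and the call held in 5 of 15 fits that each left out 1 array (limma adjusted p from 0.0120 to 0.0836). It ended without vehicle 3 to 7 or without AngII 1, 3, 4, 5 or 8.

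Itgb3, the vitronectin receptor chain, had a larger log2 fold change of -0.42 with a larger standard error of 0.162 (limma adjusted p = 0.138). Lowest, median and highest were 8.55, 9.14 and 9.61 in AngII aortae, against 9.21, 9.33 and 9.86 in vehicle aortae. AngII 7, AngII 8, AngII 4 and AngII 5 were below every vehicle array, and AngII 1, 2, 3 and 6 lay among them. Itgb1, the beta chain shared by most integrins of the vessel wall, had a log2 fold change of -0.03 with a 95% interval of -0.18 to 0.13. Its lowest, median and highest were 11.35, 11.61 and 11.84 with AngII and 11.36, 11.68 and 11.74 with vehicle, so that both groups covered nearly the same range. The log2 fold changes of Itgb4, the partner of Itga6 in epithelia, and of Itgb5, a partner of Itgav, were -0.03 and 0.03, with 95% intervals of -0.44 to 0.38 and of -0.19 to 0.24.

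Itgbl1 encodes a secreted protein with the EGF-like repeats of a beta chain but without its membrane part. Its signal was 10.67, 10.75 and 11.08 at the lowest, median and highest in AngII aortae, against 10.44, 10.58 and 10.69 in vehicle aortae. Vehicle 7 was the only vehicle array within the AngII range, and 6 of 8 AngII arrays were above all vehicle arrays. The log2 fold change of 0.23 (standard error 0.0663) just missed the threshold over all probe sets (limma adjusted p = 0.0530), while the exact permutation test of Itgbl1 by itself gave a two-sided p of 0.00155. Without AngII 6 it passed (limma adjusted p = 0.0354).

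**Figure D3:**
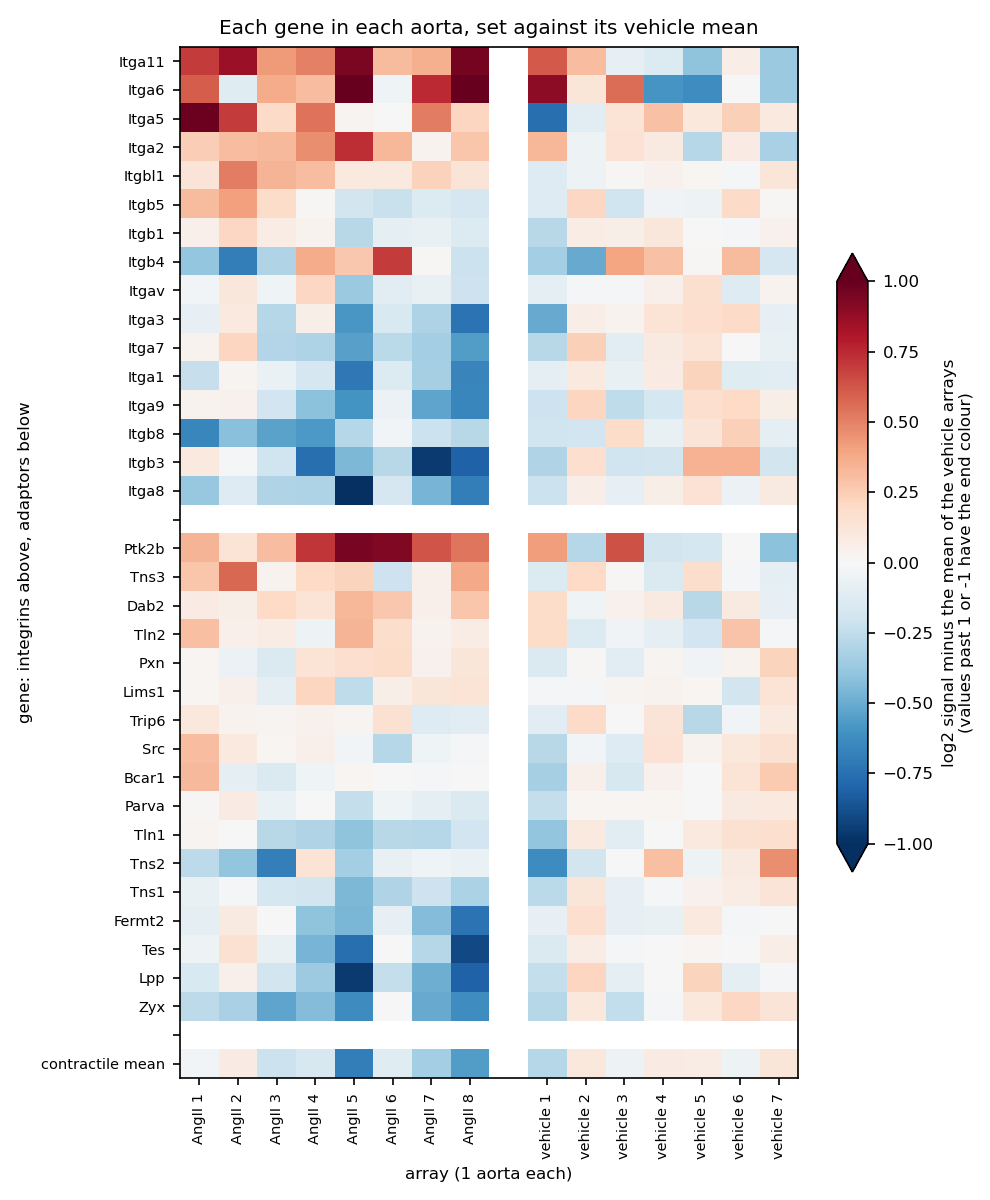
Log2 signal of each gene in each aorta minus the mean of the 7 vehicle arrays (colour), AngII arrays left of vehicle arrays, integrins above adaptors, and the mean of 15 contractile smooth muscle genes in the lowest strip. AngII 5 and AngII 8 are darkest blue for Itga8, Itga1, Lpp and Tes and for the contractile mean.

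Inside the cell, Zyx was the lowered adaptor. It encodes zyxin, a LIM-domain protein that moves to strained adhesions and stress fibres. Lowest, median and highest signals were 9.70, 9.87 and 10.33 in AngII aortae, against 10.05, 10.44 and 10.54 in vehicle aortae. AngII 6 stood apart at the top of its group, while 6 of 8 AngII arrays lay below every vehicle array. The log2 fold change was -0.41 (standard error 0.0998), so that the signal fell by 24.9% (adjusted p = 0.0258 from limma; exact permutation test, two-sided p = 0.00295). The call ended without vehicle 2, 5 or 7 or AngII 5 (limma adjusted p = 0.0595, 0.0612, 0.0555 and 0.0520), and without AngII 6 the adjusted p was 0.00496. In series B the difference was -0.47 (limma adjusted p = 0.0680) and in series A it was -0.29 (limma adjusted p = 0.586).

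No other member of the zyxin family passed the adjusted threshold. Lpp, a zyxin relative enriched in smooth muscle, had signals of 10.37, 11.03 and 11.38 at the lowest, median and highest in AngII aortae, against 11.09, 11.31 and 11.55 in vehicle aortae. Of its AngII arrays, 5 of 8 were below all vehicle arrays, and the log2 fold change was -0.39 (standard error 0.132, limma adjusted p = 0.0945; exact permutation test, two-sided p = 0.0135). Without AngII 2 Lpp passed the threshold (limma adjusted p = 0.0439). Trip6, another zyxin relative, had a log2 fold change of 0.02 with a 95% interval of -0.13 to 0.17. The 2 probe sets of Tes, which encodes the LIM protein testin, differed in size: the log2 fold change was -0.30 for the brighter one (limma adjusted p = 0.209) and -0.82 for the dimmer one (standard error 0.204, limma adjusted p = 0.0279). The mean of both was -0.56 (limma adjusted p = 0.0439).

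Ptk2b, the calcium-sensitive kinase Pyk2 and a relative of FAK, was the other called gene of this layer. Its lowest, median and highest signals were 7.09, 7.53 and 7.89 with AngII, against 6.53, 6.77 and 7.58 with vehicle. The 8 AngII arrays all exceeded the vehicle median, but vehicle 1 and vehicle 3 lay amid them, and 3 AngII arrays were above every vehicle array. The log2 fold change was 0.57 (standard error 0.160), a signal 48.1% higher, and the adjusted p was 0.0499 from limma (exact permutation test, two-sided p = 0.00855). This call held in only 3 of 15 fits that each left out 1 array, those without vehicle 1, vehicle 3 or AngII 2, and adjusted p ran from 0.0225 to 0.110. The difference was 0.78 in series B (limma adjusted p = 0.0435) and 0.19 in series A. With the macrophage mean in the fit the limma log2 fold change was 0.26 (adjusted p = 0.860). That fit called no gene of the set, raised or lowered, and 1 probe set of all. As said for Itga11, it can hardly tell the macrophage mean apart from the treatment. Src, the kinase that joins FAK and Pyk2 at adhesions, had signals of 7.52, 7.81 and 8.11 at the lowest, median and highest with AngII and 7.53, 7.85 and 7.96 with vehicle, with AngII 6 and AngII 1 at the ends. Its log2 fold change was 0.01, with a 95% interval of -0.16 to 0.19.

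Of the talins and kindlins, the switches of integrin affinity, limma called none of the 3 measured genes (2 lower at an unadjusted p under 0.05). Tln1, talin 1, had signals of 10.01, 10.13 and 10.44 at the lowest, median and highest in AngII aortae, against 10.02, 10.50 and 10.58 in vehicle aortae. All 8 AngII arrays were below the vehicle median, but vehicle 1 was as low as the lowest of them. The log2 fold change of Tln1 was -0.21 (limma adjusted p = 0.168), and without vehicle 1 it was -0.28 and was called (limma adjusted p = 0.0366). Fermt2, kindlin-2, had a log2 fold change of -0.27 (limma adjusted p = 0.159), with AngII 8, 5, 7 and 4 between 8.73 and 9.07 and the 7 vehicle arrays between 9.39 and 9.64. AngII 1 was level with the lowest vehicle arrays, and AngII 2, 3 and 6 lay within their range. Tln2, talin 2, had a log2 fold change of 0.13 with a 95% interval of -0.04 to 0.29.

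A CArG box, the binding motif of serum response factor, which drives many contractile and cytoskeletal genes, was searched in the RefSeq promoter windows (GRCm38.p6, 250 bases before to 50 after the start). The search pattern, though not each single match, is the same on both strands. A match was found in 1.81% of 27025 genes and in 2 of the 25 measured genes with a window, Fermt2 and Trip6. Both are shown, 5′ to 3′ on the minus strand of the gene with the box in capitals, because the array values of these genes differed in size: -0.27 for Fermt2 and 0.02 for Trip6. Each window was built on 1 annotated start. The match in Fermt2 lies before that start and the match in Trip6 just after it, and both lie inside the outer limits that RefSeq gives the genes, which have a start further out. A match is a stretch of letters and no evidence of binding.
Fermt2, chr14:45530250-45530279: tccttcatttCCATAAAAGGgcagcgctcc
Trip6, chr5:137314221-137314250: gtggtcgtctCCAAAATTGGggaggaaggg

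Parva, Lims1, Pxn and Bcar1, of the layers in between, had log2 fold changes of -0.06 to 0.06. Parva, alpha-parvin, which links ILK to actin, had signals of 9.20, 9.39 and 9.52 at the lowest, median and highest in AngII aortae and 9.20, 9.46 and 9.54 in vehicle aortae. Vehicle 1 and AngII 5 were its lowest arrays, at the same level, and the log2 fold change had a 95% interval of -0.19 to 0.07. For Lims1, the PINCH protein of the same complex, the interval was -0.11 to 0.17. The scaffold proteins paxillin (Pxn) and p130Cas (Bcar1), which FAK and Src phosphorylate, had 95% intervals of -0.08 to 0.20 and of -0.17 to 0.19. Bcar1 ran from 7.77 over 7.91 to 8.24 in AngII aortae and from 7.58 over 7.96 to 8.18 in vehicle aortae, with AngII 1 alone above the vehicle range.

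Among the tensins, which bind the tails of beta chains in mature adhesions, Tns1 had signals of 11.94, 12.19 and 12.36 at the lowest, median and highest with AngII, against 12.12, 12.43 and 12.52 with vehicle. All 8 AngII arrays were below the vehicle median and 3 of them below every vehicle array. The log2 fold change of Tns1 was -0.22 (standard error 0.0734, limma adjusted p = 0.0961; exact permutation test, two-sided p = 0.0121), and it passed without vehicle 1 (limma adjusted p = 0.0320). Tns2 had the same log2 fold change of -0.22 with a standard error of 0.145, and Tns3 had one of 0.19, neither past an unadjusted p of 0.05 from limma. Dab2, the clathrin adaptor that takes integrins into endosomes, ran from 9.57 over 9.69 to 9.85 with AngII, against 9.24, 9.56 and 9.71 with vehicle. Its 8 AngII arrays were all above the vehicle median, and the log2 fold change was 0.18 (limma adjusted p = 0.151; exact permutation test, two-sided p = 0.0176).

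The differences between mice within a group followed the contractile genes for many of these genes. The mean of the 15 contractile genes was 11.03 ± 0.262 in AngII aortae and 11.29 ± 0.143 in vehicle aortae (SD, n = 8 and 7). Limma called none of the 15, with 9 lower and none higher at an unadjusted p under 0.05. Of all 15095 probe sets, 1906 were lower and 1403 higher at this level. Deviations from the group means were then correlated over all 15 arrays, for each gene with the contractile mean and with the adipocyte mean, 66 relations in all, with permutations within groups and Benjamini-Hochberg adjustment. At an adjusted p under 0.05 for Pearson's r, 8 of 16 integrins and 7 of 17 adaptors followed the contractile mean, and 1 integrin and 2 adaptors ran against it. By Spearman's rho 4 integrins and 7 adaptors followed it, and 1 integrin and 0 adaptors ran against it. At an unadjusted p under 0.05 for r in the same permutation test, 10 of 16 integrins and 7 of 17 adaptors followed the contractile mean, beside 13.9% of all probe sets, and 2 integrins and 2 adaptors ran against it, beside 10.3%.

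Lpp had the closest relation to the contractile mean (r = 0.94, rho = 0.86; permutation test, adjusted p = 0.00110 and 0.0149), and Itga8 came next (r = 0.92, rho = 0.81; permutation test, adjusted p = 0.00110 and 0.0155). Without AngII 5 and AngII 8, the 2 arrays whose contractile mean lay farthest from its median, r was 0.83 for Lpp and 0.83 for Itga8. Within series B it was 0.93 and 0.97. These 2 arrays and vehicle 1 had the lowest correlations with the other arrays and the lowest contractile means of their groups. Vehicle 1 stayed in the first check, and AngII 5 and AngII 8 stayed in series B. The relations without all of these arrays together were not tested. Itga7, Itgb1, Parva, Tes, Itga3, Itga1 and Tns1 had r between 0.84 and 0.87. By rho, Itga1, Itgb1 and Itga3 did not pass (permutation test, adjusted p = 0.0576, 0.0576 and 0.0647), and for Itga1 r was 0.57 without the 2 farthest arrays. Zyx had r = 0.69 and rho = 0.70 (permutation test, adjusted p = 0.0197 and 0.0223), 0.58 without the 2 arrays and 0.68 within series B. Of the called genes, Itga11 (r = -0.46) and Itgb8 (r = -0.24) did not pass this test. For Itga11 r was -0.19 without the 2 farthest arrays and -0.85 within series B, and for Itgb8 it was -0.13 and -0.16. Ptk2b had r = -0.59 (rho = -0.60; permutation test, adjusted p = 0.0469 and 0.0600), -0.66 without the 2 arrays and -0.21 within series B.

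**Figure D4:**
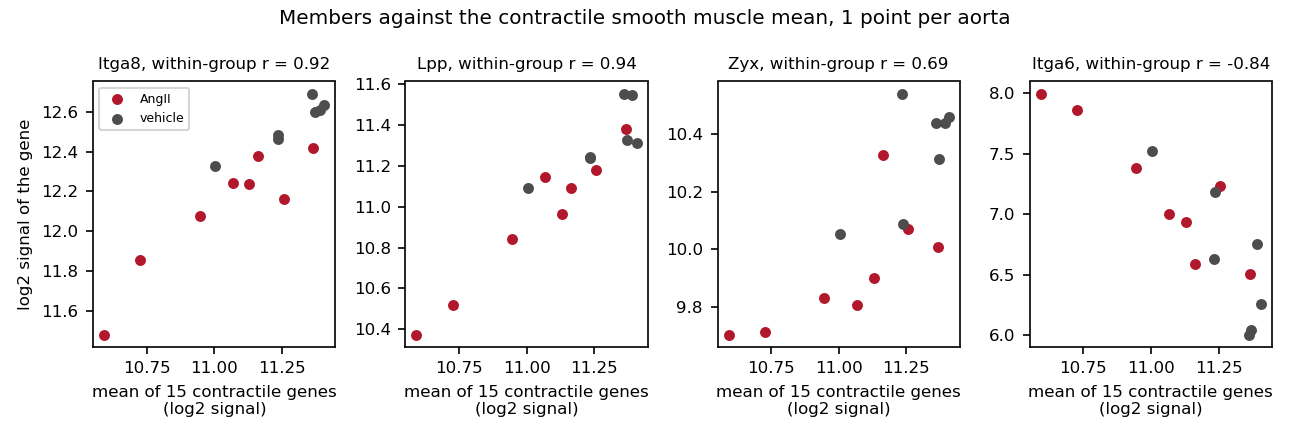
Log2 signal of Itga8, Lpp, Zyx and Itga6 (y axes) against the mean log2 signal of 15 contractile smooth muscle genes (x axes), 1 point per aorta, AngII red and vehicle grey. The r above each panel is over deviations from the group means of 15 arrays; it is 0.92, 0.94, 0.69 and -0.84.

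Itga6 ran against the contractile mean (r = -0.84, rho = -0.74; permutation test, adjusted p = 0.00151 and 0.0193; r = -0.74 without the 2 farthest arrays and -0.88 in series B). It followed the adipocyte mean (r = 0.86, rho = 0.89; permutation test, adjusted p = 0.00165 and 0.00264), with r = 0.82 without vehicle 5 and AngII 6, which lay farthest from its median, and r = 0.86 in series B. Zyx (r = -0.74, rho = -0.76; permutation test, adjusted p = 0.0107 and 0.0193) and Itga8 (r = -0.64, rho = -0.74; permutation test, adjusted p = 0.0165 and 0.0155) ran against the adipocyte mean. For Zyx r was -0.65 without the 2 farthest arrays and -0.77 in series B, and for Itga8 it was -0.56 and -0.68. The relation of the contractile and adipocyte means to each other was not tested, so the relations of a gene to both may not be separate results.

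With the contractile mean as a covariate, limma gave log2 fold changes of 0.46 for Itga11 (adjusted p = 0.228), -0.17 for Itga8 (adjusted p = 0.279), -0.43 for Itgb8 (adjusted p = 0.105), -0.25 for Zyx (adjusted p = 0.258) and 0.33 for Ptk2b (adjusted p = 0.411). That fit called 114 probe sets of all, where the fit without it called 805. Itgbl1, at 0.32, was the 1 gene of the set that it called (adjusted p = 0.0457). With the adipocyte mean instead, Itga11 (0.52, adjusted p = 0.0412), Zyx (-0.32, adjusted p = 0.0355) and Itgbl1 (0.26, adjusted p = 0.0499) were called by limma, and Itgb8 (-0.35, adjusted p = 0.0740), Itga8 and Ptk2b were not.

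The difference between AngII and vehicle was set side by side in both series of sample names, and no gene of the set passed the test of a change between them. In series B the differences between AngII and vehicle were larger in size than in series A for 25 of 33 genes, and for 13 genes the signs were opposite. Itga6 differed by 0.93 in series B and by -0.23 in series A, and Itgb3 by -0.68 and 0.02. Itga5 went the other way, with 0.08 in series B and 1.06 in series A. Limma's interaction of group and series called no gene of the set and 0 of 15095 probe sets. At an unadjusted p under 0.05 it gave 13 of 33 genes, beside 965 probe sets in all, and Itga5 had the lowest p of them (interaction -0.97, unadjusted p = 0.00319, adjusted p = 0.729 from limma). Series B alone gave limma calls for Itga7, Itga11, Tln1, Ptk2b, Lpp and Tns1, and series A alone for none of the 33. Between the series themselves, with the group in the fit, Itgb4 was higher by 0.65 (limma adjusted p = 0.0135) and Tns2 by 0.45 (limma adjusted p = 0.0332) in series B.

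**Figure D5:**
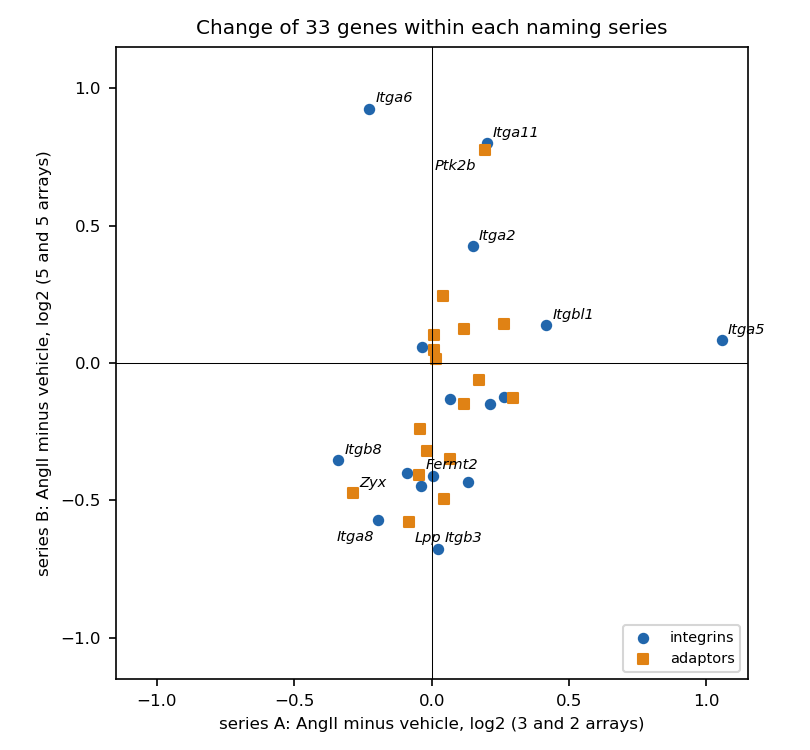
Difference in mean log2 signal, AngII minus vehicle, of the 33 genes in series B (y axis, 5 AngII and 5 vehicle arrays) against series A (x axis, 3 AngII and 2 vehicle arrays), integrins as circles and adaptors as squares. Itgb8 (-0.35 in B, -0.34 in A) is alike in both, while Itga6 (0.93 and -0.23) and Itga5 (0.08 and 1.06) lie far from the diagonal.

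Genes that act around these proteins were taken from 6 further lists, in which limma called 8 genes in all. Of all probe sets limma called 5.33%, and 21.9% had an unadjusted p under 0.05, so that counts of 1 or 2 in a list are near that share or rest on few genes. Of 31 measured matrix ligands of integrins, 2 were higher and 2 lower, with a median log2 fold change of 0.21. At an unadjusted p under 0.05 from limma 14 of the 31 were higher and 3 lower, and 22 log2 fold changes were positive. Fn1, fibronectin, the ligand of Itga5, was at 12.98 ± 0.279 in AngII and 12.47 ± 0.191 in vehicle aortae (SD, n = 8 and 7; log2 fold change 0.51, limma adjusted p = 0.0214), and the other higher ligand was Thbs1, thrombospondin 1. The lower ones were Lama4, a laminin chain of vessels (9.81 ± 0.0591 with AngII and 10.18 ± 0.164 with vehicle, SD, n = 8 and 7; log2 fold change -0.38, limma adjusted p = 0.00650), and Tnxb, tenascin-X (log2 fold change -0.47, limma adjusted p = 0.00435). Col1a1 and Col3a1, the fibrillar collagens bound by Itga11, had log2 fold changes of 0.50 and 0.45 (limma adjusted p = 0.0979 and 0.0944), and Npnt, nephronectin, the ligand of Itga8, had one of -0.37 (limma adjusted p = 0.191).

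Of 10 membrane partners of integrins, 2 were higher: Plaur, the urokinase receptor (log2 fold change 0.52, limma adjusted p = 0.00414), and Cd63, a tetraspanin (0.25, limma adjusted p = 0.0225). Among 11 genes of integrin activation and its inner linkage, only Kank1, a talin-binding protein of adhesion rims, was called, and it was lower (log2 fold change -0.34, limma adjusted p = 0.0186). Among 18 actin linkers only Palld, palladin of stress fibres, was called, and it was higher (log2 fold change 0.40, limma adjusted p = 0.0338). Of 20 genes of FAK and paxillin signalling limma called none (1 higher and 3 lower at an unadjusted p under 0.05), and Tgfb1i1, the paxillin relative Hic-5, had a log2 fold change of -0.39 (limma adjusted p = 0.0960). Of 6 measured integrin chains of leukocytes and platelets limma called none (3 higher at an unadjusted p under 0.05), and all 6 log2 fold changes were positive. Itgb2, the beta chain of leukocyte integrins, had the largest of these, 0.62 (limma adjusted p = 0.0516), beside the macrophage markers given above; their part in it was not tested.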

How the data were processed

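RNA of 15 mouse aortae was measured on Affymetrix arrays. Per the labels and the study's methods, the authors used Expression Console for background correction, normalization and probe summarization (robust multiarray analysis, RMA), and the deposited values are log2 signals. The sources name different RNA kits and spell the strain differently. The table held 15095 probe sets, 13403 with 1 symbol, 958 with several and 734 with none; genes were named by the platform annotation, and no filter was applied. Groups came from the sample labels. AngII minus vehicle was fitted on all probe sets with limma 3.58.1 (lmFit, eBayes; R 4.3.3), with Benjamini-Hochberg adjustment and a threshold of 0.05; the significance analysis of microarrays of the study was not run here. Single genes were also tested over all 6435 splits of the arrays, exact and two-sided, with a smallest p of 0.000155 (SciPy 1.17.1). Correlations used 100000 permutations within groups. The fit was tested on simulated data. Values by array were given for genes called, then for genes at an unadjusted p under 0.05 and for the brightest gene of each role, in part or in full. The genes and lists were chosen with earlier results of these data known. Alternatives were a replicate block, the naming series, each array left out, marker means as covariates, quantile normalization, array weights, a signal filter, probe set means, eBayes with trend and robust, and the methods' t-test. No depth applies to arrays; their number limits the precision. The labels do not say whether the mice of a group shared a litter or a day.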

Additional observations from a re-analysis of the deposited data

Results flagged for a closer look

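In 5 of 66 groups of arrays (33 genes, AngII and vehicle each), 1 array stood apart from the rest of its group by Dixon's criterion, which flags about 1 in 20 groups by chance. In 4 of the 5 it was vehicle 1, which was also among the 3 arrays with the lowest correlations to the rest, as the lowest of the vehicle arrays. Vehicle 1 was at 8.969 for Itga3, with the next vehicle array at 9.392, and at 9.189 for Itga5, with the next at 9.827. For Itgb1 it was at 11.36, with the next at 11.62, and for Parva at 9.199, with the next at 9.434. In the AngII group, AngII 1 was highest for Bcar1, at 8.239, with the next AngII array at 7.934. None of these genes was called by limma with all arrays or without the array concerned.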

How the results depend on the processing

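Of 951 values of single genes under the alternatives, 810 kept their direction and their side of the threshold, 71 fell short of it, 17 newly passed it and 53 changed sign. The 5 calls lay near the threshold, and their number moved with most choices.

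Leaving out 1 array at a time gave 0 to 4 integrins, 0 to 4 adaptors, 5 to 15 genes of the further lists and 344 to 1198 of all probe sets, with medians of -0.0954 to -0.0266 over integrins and -0.0469 to 0.0351 over adaptors. Whether the replicate numbers of the labels pair the arrays is not stated. Deviations of same-numbered arrays correlated at -0.456 to 0.416, which cannot settle it. With the number as a replicate block limma called 1 integrin (Itgb8), 0 adaptors, 3 further genes and 191 probe sets. Series B alone gave 4 adaptors and 373 probe sets, with medians of -0.139 over integrins and -0.127 over adaptors, and series A alone 0 integrins, 0 adaptors, 1 further gene and 8 probe sets, with an integrin median of 0.0451. With the contractile mean in the fit there were 1 integrin, 0 adaptors, 5 further genes and 114 probe sets, with the adipocyte mean 1 adaptor and 456 probe sets, and with the macrophage mean 0 integrins, 0 adaptors, 0 further genes and 1 probe set (1113 at an unadjusted p under 0.05), with an integrin median of 0.0696. Array weights gave 5 integrins, 17 further genes and 1272 probe sets. Probe sets above the median signal alone gave 496 calls and an integrin median of -0.249. That filter left out Itga11, Itga2, Itga6, Itgb4 and Itgb8. The log2 fold changes of the other integrins stayed as they were, so the median moved only through the genes left out. The fit of eBayes with trend and robust gave 1 adaptor. The methods' t-test gave 496 probe sets but 0 integrins and 0 adaptors (10 and 7 at an unadjusted p under 0.05). Without the 3 arrays that correlated least, a choice made after seeing the data, there were 1 adaptor and 531 probe sets.

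Signs turned for genes that were not called. With the macrophage mean in the fit the log2 fold changes were -0.0502 for Dab2, 0.0922 for Parva, 0.0231 for Tns2, 0.00094 for Lpp, 0.0635 for Tes, 0.0094 for Itga1, 0.206 for Itga3, -0.312 for Itga6, 0.0477 for Itga7, 0.0194 for Itga9, 0.171 for Itgav and 0.143 for Itgb1. In series A they were 0.118 for Parva, 0.0659 for Tln1, 0.0449 for Tes, 0.130 for Itga3, -0.227 for Itga6, 0.0050 for Itga7, 0.0660 for Itgav, 0.212 for Itgb1 and 0.0242 for Itgb3. With the contractile mean they were 0.0461 for Parva, 0.0238 for Itga3, 0.0721 for Itgav and 0.118 for Itgb1, and in series B -0.127 for Src, -0.0606 for Bcar1, 0.0592 for Itgb4 and -0.123 for Itgb5. Without the 3 arrays Src was at -0.0221 and Bcar1 at -0.0483, with array weights Bcar1 at -0.0242 and Trip6 at -0.0077, with the adipocyte mean Itgb1 at 0.0101 and Itgb4 at 0.0100, and with the series as a block Itgb4 at 0.0281. Leaving out single arrays moved Src between -0.0341 and 0.0552, Bcar1 between -0.0469 and 0.0522, Trip6 between -0.0271 and 0.0508, Itgb1 between -0.0712 and 0.0103, Itgb4 between -0.134 and 0.0648 and Itgb5 between -0.0283 and 0.0617. The cause of these moves was not tested.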
